A study of Mus musculus with 12 samples.

Results

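The 6 genes described here encode subunits of the NMDA receptor: Grin1, Grin2a, Grin2b, Grin2c, Grin2d and Grin3a. They were taken by gene symbol from 2 deposited tables of exon-exon junctions in mouse, and were 6 of the 20137 genes with a measured annotated intron. The members held 376 of the 613477 distinct junctions of one table and 224 of the 435873 of the other. Each value counts the reads that cross a junction, so the measure follows spliced, polyadenylated RNA.

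All 12 libraries came from wild-type NMRI mice and fall into 6 groups of 2. DRB_first held neocortical cultures given DRB, a blocker of transcription elongation, at 50 µM for 2 hours, and control held the untreated cultures. P49 and P10 held neocortex tissue of postnatal day 49 and of postnatal day 10. DRB+bicuculline held cultures given DRB at 50 µM for 2 hours with bicuculline, an antagonist of GABA-A receptors, at 20 µM for 1 hour, and DRB_second held the matching cultures with DRB alone. All cultures were made from E16.5 neocortex and grown for 14 days, so they held a mixture of neurons and glia. Some column names of the DRB groups also carry the letters TTX, and whether that toxin was given is not stated in the sources used here. Whether both libraries of a group stem from different mice or dishes is not stated, and the p-values may therefore reflect technical spread alone.

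NMDA receptors are glutamate-gated cation channels of excitatory synapses, and they pass calcium when glutamate and a co-agonist, glycine or D-serine, bind while the membrane is depolarised. Grin1 encodes the obligatory glycine-binding subunit, the Grin2 genes encode the glutamate-binding subunits, and Grin3a encodes a further glycine-binding subunit. In the rodent forebrain Grin2b, Grin2d and Grin3a are known from early life, Grin2a is known to join as the cortex matures, and Grin2c is known best from cerebellar granule cells.

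Grin1 has alternative exons that change the protein. The N1 exon adds a positively charged loop to the extracellular amino-terminal domain, and the C1 exon adds a stretch to the intracellular tail that is known to bind neurofilament and calmodulin and to carry phosphorylation sites. Grin3a has an alternative acceptor that lengthens the coding sequence of its last exon. Their sequences are shown because the junction results below turn on them. They were read from the GENCODE M21 transcripts (GRCm38, minus strand), with the alternative part in capitals and 20 bases of the neighbouring exon sequence on each side in lower case. The N1 exon is exon 4 of 21 of Grin1-204, at chr2:25311343-25311405. The C1 exon is exon 20 of the same transcript, at chr2:25294438-25294548. The Grin3a insert opens exon 9 of 9 of Grin3a-202, at chr4:49665566-49665625.
Grin1 N1: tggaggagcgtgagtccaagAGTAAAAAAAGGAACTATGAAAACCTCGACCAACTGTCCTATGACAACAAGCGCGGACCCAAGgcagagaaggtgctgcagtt
Grin1 C1: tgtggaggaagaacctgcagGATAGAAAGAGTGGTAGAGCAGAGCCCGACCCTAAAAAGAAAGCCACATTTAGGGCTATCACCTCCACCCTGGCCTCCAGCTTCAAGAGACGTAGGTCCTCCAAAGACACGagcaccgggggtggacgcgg
Grin3a insert: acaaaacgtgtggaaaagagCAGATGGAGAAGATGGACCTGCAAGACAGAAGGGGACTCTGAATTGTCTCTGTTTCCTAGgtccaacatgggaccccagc
The N1 exon is 63 bases long, the C1 exon 111 bases and the Grin3a insert 60 bases, and all 3 are whole numbers of codons (21, 37 and 20). Their GC content was 44.4%, 52.3% and 48.3%.

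The libraries held 49559425 to 73900724 spliced reads each, and at least 99.1% of them lay at annotated introns. Counts were summed per gene over annotated introns and scaled to CPM (counts in every 1000000 spliced reads) with TMM factors. A CPM is a share of the spliced reads of a library, so a rise does not show more molecules per cell. The 2 tables were normalised separately. The neuronal marker list (Rbfox3, Map2, Tubb3, Syn1, Stmn2 and Snap25) summed to 3516-3605 CPM in DRB_first, 1843-1932 in control, 5164-5228 in P49, 4168-4212 in P10, 3128-3250 in DRB+bicuculline and 3155-3301 in DRB_second. The excitatory list, led by the vesicular glutamate transporter Slc17a7, summed to 1980-2073 CPM in P49 and 1649-1699 CPM in P10, and the markers of cerebellar granule cells stayed between 6.91 and 17.6 CPM in all groups of the first table. Astrocyte markers summed to 1489-1593 CPM in DRB_first, 1660-1671 in control, 967-1001 in P49 and 960-1034 in P10. Microglial markers summed to 190-191 CPM in P49 and 204-220 CPM in P10, oligodendrocyte precursor markers to 82.7-85.3 CPM in P49 and 146-151 CPM in P10, endothelial and mural markers to 129-142 CPM in P49 and 236-239 CPM in P10, and fibroblast markers to 176-190 CPM in P49 and 574-581 CPM in P10.

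The first comparison set neocortex of the 2 ages side by side. At P49 the transcripts of Grin1, Grin2a and Grin2c were higher than at P10, those of Grin2d and Grin3a were lower, and Grin2b did not pass the test. In all, 5 of the 6 members were called by edgeR's quasi-likelihood test at an adjusted p under 0.05, where 56.4% of all 15700 genes tested were called. The direction was higher for 3 members (27.9% of all genes) and lower for 2 (28.6%). In bulk tissue, fewer cells of a type and less RNA per cell cannot be told apart. Statements below that libraries of 2 groups did not overlap are description only, because the share of all genes doing so is not given.

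Grin1, the obligatory subunit, had 1175 and 1158 CPM at P49, against 992 and 935 CPM at P10. The libraries did not overlap, and Grin1 was 1.21-fold higher at P49 (log2 change 0.28 ± 0.05 SE, adjusted p = 0.000456). The neuronal markers split, with 4 of 6 higher, led by Snap25 (log2 change 1.57), and 2 lower, Stmn2 (-1.76) and Tubb3 (-1.48). Their part in the result was not tested.

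Grin2a, which gives receptors fast decay, had 21.2 and 21.5 CPM at P49, against 12.1 and 10.5 CPM at P10. It rose 1.89-fold (log2 change 0.92 ± 0.09 SE, edgeR adjusted p = 6.79e-06). Grin2b, the subunit of slower, calmodulin kinase-binding receptors, had 17.9 and 18.9 CPM at P49, against 21.1 and 19.8 CPM at P10. Its groups did not overlap, but the change of -0.15 ± 0.08 (95% interval -0.32 to 0.01) missed the threshold (adjusted p = 0.105, edgeR).

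Grin2c gave the largest rise of the members, with 51.1 and 52.0 CPM at P49, against 24.0 and 25.8 CPM at P10 (2.07-fold, log2 change 1.05 ± 0.08 SE, edgeR adjusted p = 9.21e-07). Both P49 libraries lay above both P10 libraries. Oligodendrocyte markers summed to 2675-2726 CPM at P49 and 882-1030 CPM at P10, with 6 of 6 higher. Of 5 tested astrocyte markers 3 were lower at P49, led by Aqp4 (log2 change -0.87), and 1 was higher, Slc1a2 (0.32). The part of these cells in the Grin2c result was not tested. Cerebellar granule cell markers summed to 6.91-7.13 CPM at P49 and 12.0-13.6 CPM at P10, and the called one of 4 tested, Cbln1, was lower at P49 (log2 change -1.25).

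Grin2d, a subunit of receptors with very slow decay and weak magnesium block, fell furthest. It had 16.9 and 17.5 CPM at P49, against 56.4 and 62.6 CPM at P10, which was 71.1% lower (log2 change -1.79 ± 0.08 SE, edgeR adjusted p = 1.20e-08). Grin3a, whose subunit lowers calcium flow through the receptor, had 15.6 and 17.8 CPM at P49, against 39.1 and 42.0 CPM at P10. It was 58.8% lower (log2 change -1.28 ± 0.10 SE, edgeR adjusted p = 5.69e-07). Both P10 libraries lay above both P49 libraries for each of these genes. Markers of inhibitory neurons, a cell type in which Grin2d is known, summed to 867-930 CPM at P49 and 465-516 CPM at P10. Of 6 tested, 4 were higher at P49 and 2 were not called. Gad1 averaged 501.4 CPM at P49 and 228.5 CPM at P10. The part of these cells in the result was not tested.

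**Figure D1:**
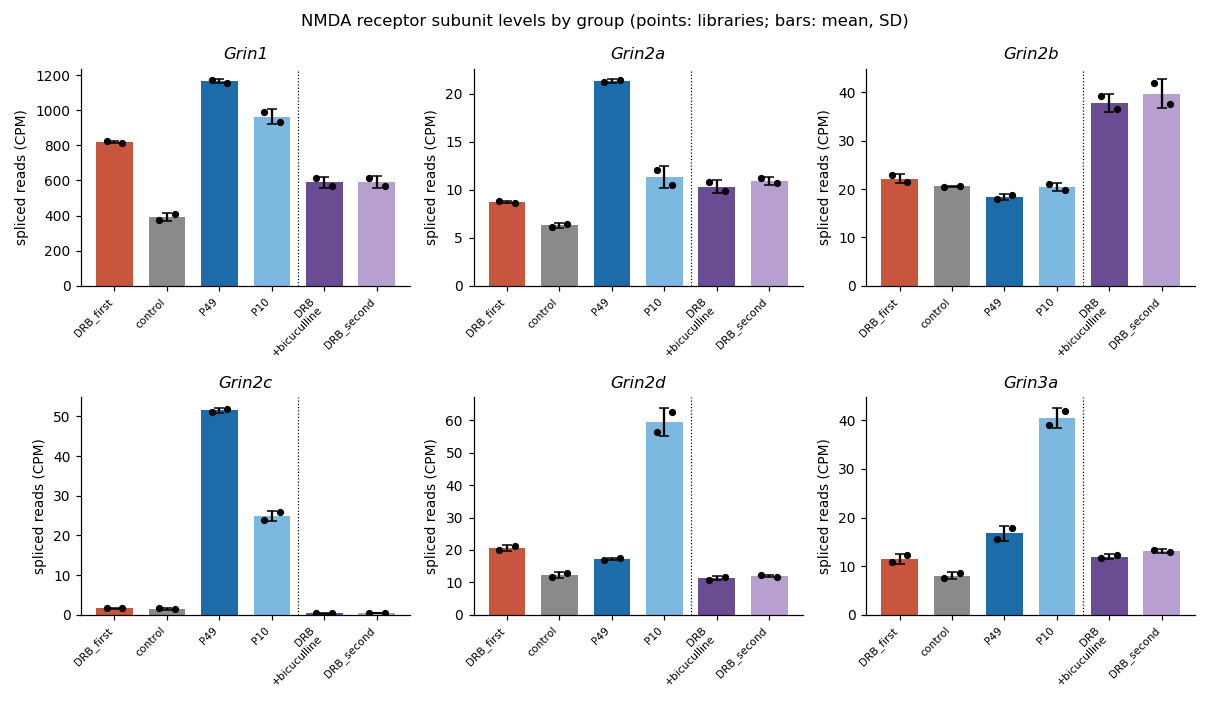
Spliced reads (CPM, vertical axis, from 0) of each subunit gene in the 6 groups; points are libraries, bars are means with SD (n = 2), and the dotted line parts the separately normalised tables. Grin2c stands at 51.5 CPM at P49 and at 1.53 CPM in control cultures, while Grin2b lies between 18.4 and 22.1 CPM in all groups of the first table.

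The second comparison set cultures with blocked transcription beside untreated ones. After 2 hours of DRB, 4 members had higher CPM than in control (Grin1, Grin2a, Grin2d and Grin3a), none was lower, and Grin2b and Grin2c were not called. Of all 15700 genes tested, 62.4% were called by edgeR, with 29.6% of all genes higher and 32.8% lower.

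Grin1 had 823 and 813 CPM in DRB_first, against 377 and 407 CPM in control (2.09-fold, log2 change 1.06 ± 0.05 SE, adjusted p = 3.27e-08, edgeR). Grin2a had 8.85 and 8.65 CPM in DRB_first, against 6.09 and 6.47 CPM in control (1.39-fold, log2 change 0.48 ± 0.10, adjusted p = 0.00146, edgeR). The Grin1 change was the larger of the 2.

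Grin2d had 19.9 and 21.3 CPM in DRB_first, against 11.5 and 12.8 CPM in control, a 1.69-fold difference (edgeR adjusted p = 1.08e-05). Grin3a had 10.8 and 12.3 CPM in DRB_first, against 7.60 and 8.53 CPM in control, a 1.43-fold difference (edgeR adjusted p = 0.00106). Both genes were above every control library in each DRB_first library.

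Grin2b had 22.8 and 21.5 CPM in DRB_first, against 20.5 and 20.7 CPM in control. Its log2 change of 0.11 had a 95% interval of -0.06 to 0.27 (edgeR adjusted p = 0.245), so a rise as large as that of Grin1 lies outside the interval. Grin2c was close to the lower end of what was counted, with 87 and 103 reads in DRB_first and 90 and 80 reads in control, and was not called (log2 change 0.12, interval -0.19 to 0.43). Neuronal markers moved with the called members: 6 of 6 were higher in DRB_first with a median log2 change of 0.98. Endothelial and mural markers summed to 171-173 CPM in DRB_first and 626-764 CPM in control, with Kdr (log2 change -2.05), Acta2 (-2.09) and Pdgfrb (-1.30) lower but Pecam1 (1.01) and Rgs5 (1.38) higher. The part of either cell group in the result was not tested.

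The third comparison set bicuculline with DRB beside DRB alone. No member was called by edgeR, at adjusted p = 0.999 for each of the 6, and 0 of the 6 had an unadjusted p under 0.05. Of all 14491 genes tested, 0.207% were called, 0.179% higher and 0.0276% lower. Grin1 had 612 and 567 CPM in DRB+bicuculline, against 615 and 567 CPM in DRB_second (log2 change -0.004, 95% interval -0.09 to 0.09).

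Grin2a had 10.8 and 9.85 CPM in DRB+bicuculline, against 11.3 and 10.7 CPM in DRB_second, and its interval ran from -0.27 to 0.10. Grin2b had 39.2 and 36.6 CPM in DRB+bicuculline, against 41.9 and 37.7 CPM in DRB_second, with an interval of -0.19 to 0.05. Grin2d had 10.8 and 11.8 CPM in DRB+bicuculline, against 12.3 and 11.8 CPM in DRB_second, with an interval of -0.27 to 0.08. Grin2a and Grin2b overlapped between the groups, and the nearest Grin2d libraries were within rounding of each other.

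Grin3a had 11.6 and 12.3 CPM in DRB+bicuculline, against 13.4 and 12.9 CPM in DRB_second, and its log2 change of -0.14 had an interval of -0.31 to 0.03; its libraries did not overlap. Grin2c had 31 and 20 reads in DRB+bicuculline and 28 and 30 reads in DRB_second, so its interval was wide (-0.97 to 0.50) and a change of less than that size was not detectable at this depth.

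The remaining comparisons set the control cultures beside tissue of each age. They share the control libraries with each other and with the DRB comparison. Against P10, 5 members were lower in control and Grin2b was not called, where 73.7% of all genes tested were called and 36.9% were called lower. Against P49 the same 5 genes were lower and Grin2b again was not called, where 76.1% of all genes were called and 36.9% were called lower. All calls are from edgeR's quasi-likelihood test.

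Grin1 averaged 392 ± 21.3 CPM in control, 1166 ± 12.0 CPM at P49 and 964 ± 40.6 CPM at P10 (SD, n = 2 each). It was 66.4% lower in control than at P49 (log2 change -1.57, edgeR adjusted p = 7.34e-11) and 59.3% lower than at P10 (log2 change -1.30, edgeR adjusted p = 4.90e-10). The neuronal markers were also lower in control than at P10, 5 of 6 of them, with a median log2 change of -1.39, and against P49 3 were lower and 2 higher (median -0.83). Their part in the result was not tested.

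Grin2c had the largest gap of the members. It averaged 1.53 ± 0.24 CPM in control, 51.5 ± 0.63 CPM at P49 and 24.9 ± 1.32 CPM at P10, and was 97.0% lower in control than at P49 and 93.9% lower than at P10. Oligodendrocyte markers summed to 60.8-74.6 CPM in control, 2675-2726 CPM at P49 and 882-1030 CPM at P10, and their part in the Grin2c result was not tested. Of 5 tested astrocyte markers, 4 were higher in control than in either tissue and 1 was lower in each comparison. The lower one, Slc1a2, averaged 121 CPM in control, 422.7 CPM at P49 and 337.8 CPM at P10.

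Grin2a averaged 6.28 ± 0.27 CPM in control, 21.3 ± 0.21 CPM at P49 and 11.3 ± 1.14 CPM at P10, and was 70.5% lower in control than at P49 and 44.3% lower than at P10. Grin2d averaged 12.2 ± 0.92 CPM in control, 17.2 ± 0.40 CPM at P49 and 59.5 ± 4.41 CPM at P10. Grin3a averaged 8.06 ± 0.66 CPM in control, 16.7 ± 1.56 CPM at P49 and 40.5 ± 2.06 CPM at P10. Grin2d and Grin3a therefore lay nearer to the adult than to the young tissue, at log2 changes of -0.50 and -1.05 from P49 and of -2.29 and -2.33 from P10.

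Grin2b was the member whose level was most alike in cultures and tissue. It averaged 20.6 ± 0.13 CPM in control, 18.4 ± 0.67 CPM at P49 and 20.4 ± 0.87 CPM at P10. The log2 change of control was 0.16 from P49 (95% interval -0.004 to 0.33, edgeR adjusted p = 0.0705) and 0.01 from P10 (interval -0.16 to 0.17, edgeR adjusted p = 0.917).

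**Figure D2:**
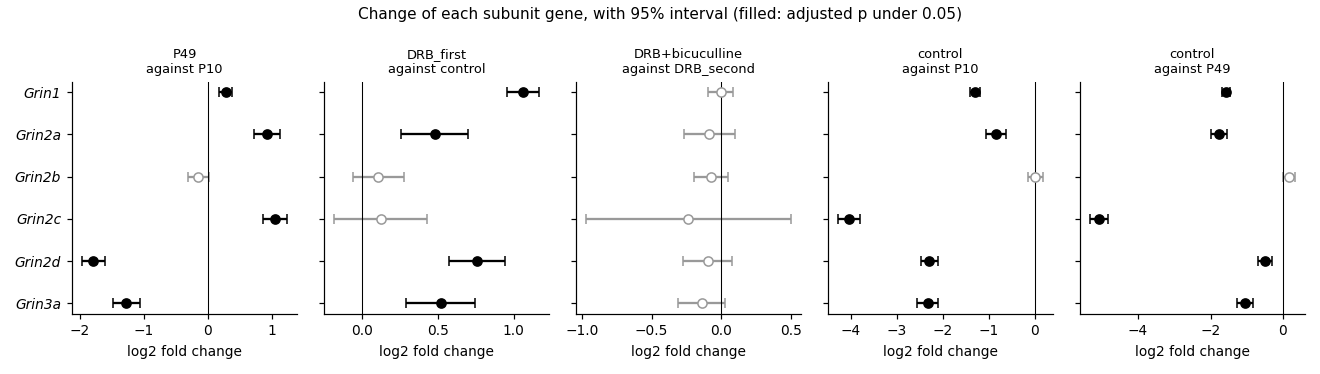
Log2 fold change (horizontal axes, each with its own scale) of the subunit genes in the 5 comparisons, with 95% intervals from edgeR; filled points passed an adjusted p of 0.05. Grin2b is open in every panel, and Grin2c reaches -5.08 in control against P49.

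Levels of different genes can be set side by side only per junction. The median number of reads per junction, in CPM, was therefore taken over the introns of the coding transcript with most introns that were listed in the tables. These introns include the N1 junctions of Grin1 and the insert acceptor of Grin3a. Junctions of a gene varied widely: in the first P10 library, Grin3a ran from 0.94 to 8.66 and Grin2d from 1.45 to 8.72. Close ranks are therefore uncertain, and overlap below refers to the medians of libraries. Grin1 led in every group, with 43.3 in DRB_first, 20.7 in control, 61.3 at P49, 50.8 at P10, 29.1 in DRB+bicuculline and 28.8 in DRB_second. The 4 Grin2 genes together came to 4.76 ± 0.11 in DRB_first, 3.61 ± 0.05 in control, 9.08 ± 0.12 at P49 and 10.3 ± 0.60 at P10.

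At P49 Grin2c was next after Grin1, with 3.79, followed by Grin3a with 2.51, Grin2a with 2.07, Grin2b with 1.64 and Grin2d with 1.58 CPM per junction. Grin2b and Grin2d overlapped there. At P10 the order after Grin1 was Grin3a with 6.05, Grin2d with 5.53, Grin2c with 1.94, Grin2b with 1.82 and Grin2a with 0.98, and Grin2c overlapped with Grin2b. Grin2a thus stood last at P10 and ahead of Grin2b at P49.

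In DRB_first the order after Grin1 was Grin2d with 2.01, Grin2b with 1.85, Grin3a with 1.84, Grin2a with 0.77 and Grin2c with 0.13, and Grin2b overlapped with Grin3a. In control Grin2b was next with 1.81, then Grin3a with 1.21, Grin2d with 1.16, Grin2a with 0.54 and Grin2c with 0.10, and Grin3a overlapped with Grin2d. Grin2b also followed Grin1 in DRB+bicuculline with 3.18 and in DRB_second with 3.37. Grin2c was last in every culture group.

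The Grin2a share of Grin2a plus Grin2b, per junction, was 57.0% and 54.4% at P49, against 35.3% and 34.8% at P10. The difference of 20.7 percentage points separated the ages with no overlap, and the exact two-sided permutation p was 0.333, the smallest that 2 against 2 libraries allow. The share was 29.8% and 28.8% in DRB_first, against 23.02% and 23.2% in control (exact permutation p = 0.333). It was 24.0% and 21.5% in DRB+bicuculline, against 23.2% and 22.8% in DRB_second, which overlapped (exact permutation p = 1.0). Control was 11.9 percentage points below P10 and 32.6 below P49, with no overlap.

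Within the 4 Grin2 genes, Grin2c made up 41.7% ± 0.68 at P49 and 18.8% ± 1.08 at P10, and Grin2d made up 17.4% ± 0.67 at P49 and 53.9% ± 2.08 at P10 (SD, n = 2 each). Grin2b held almost the same share at both ages, 18.1% ± 0.76 at P49 and 17.7% ± 0.55 at P10. In the first culture experiment Grin2b was 38.9% ± 0.73 of the Grin2 reads in DRB_first and 50.2% ± 1.24 in control, and Grin2d was 42.2% ± 1.40 in DRB_first and 32.0% ± 2.09 in control. Grin1 stood at 9.09 ± 0.18 times the Grin2 sum in DRB_first and 5.73 ± 0.26 times in control, and at 6.75 ± 0.03 times at P49 and 4.95 ± 0.22 times at P10.

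**Figure D3:**
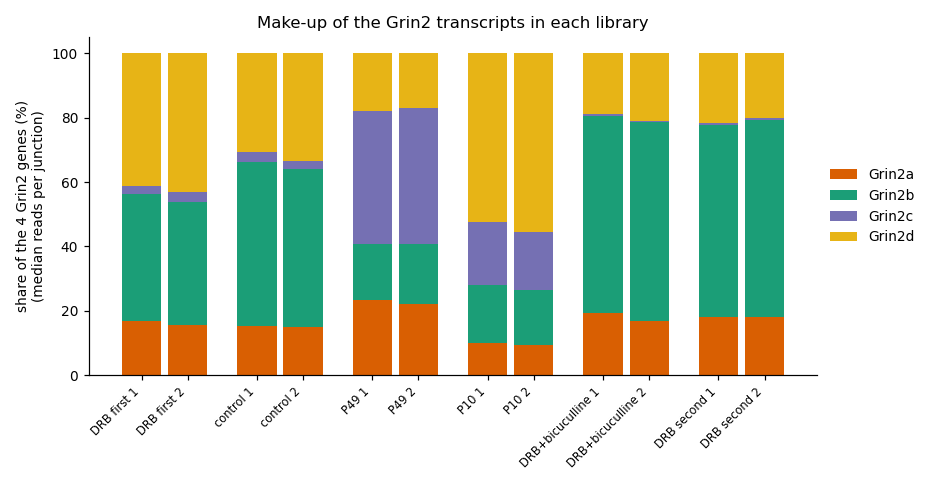
Share (%, vertical axis) of Grin2a, Grin2b, Grin2c and Grin2d in their summed median reads per junction, one stacked bar for each of the 12 libraries. Grin2d is the widest band at P10 (53.9%), Grin2c at P49 (41.7%) and Grin2b in control (50.2%) and DRB_second (60.4%).

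Grin1 splicing was followed through its 20 junctions. The tables list only junctions between adjacent exons, so reads that skip an exon were not counted and percent spliced in could not be computed. Inclusion was measured instead as reads into and out of the N1 exon, or into the C1 exon, over the neighbouring constitutive Grin1 junctions. This index is not bounded at 100%. The test of each junction relative to its whole gene (edgeR's diffSpliceDGE) covered all 151064 annotated junctions that passed the filter in the first table.

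By this index the N1 exon was included in tissue and little included in culture. Its 2 junctions held 731 and 1078 reads in the first P49 library and 480 and 740 in the second, against 452 and 598 and against 406 and 601 in the P10 libraries. They held 30 and 49 and then 24 and 54 reads in the DRB_first libraries, against 12 and 25 and then 8 and 28 in the control libraries. The inclusion index was 19.8% and 15.8% at P49 and 13.8% and 13.2% at P10, and 1.45% and 1.35% in DRB_first and 1.52% and 1.12% in control.

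Between control and P10 the N1 index differed 10.3-fold, at 1.32% ± 0.28 in control and 13.5% ± 0.40 at P10, and between control and P49 it differed 13.5-fold. Both N1 junctions were called lower relative to Grin1 in control. The junction into the exon, chr2:25311406-25313427, had a log2 change of -3.77 from P10 (adjusted p = 5.98e-26, edgeR) and of -4.16 from P49 (adjusted p = 1.92e-30, edgeR). The junction out of it, chr2:25310476-25311342, had -2.86 from P10 (adjusted p = 5.42e-26, edgeR) and -3.35 from P49 (adjusted p = 1.84e-32, edgeR). Among all junctions 4.90% were called in control against P10 and 4.78% in control against P49.

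Between the ages, the junction out of N1 was higher at P49 (log2 change relative to Grin1 0.49, adjusted p = 0.00129, edgeR), where 1.34% of all junctions were called. The junction into N1 was not called. The call rests on 1 adult library: without P49 replicate 1 the change was 0.30 (adjusted p = 0.846, edgeR) and 0 of the 4 cassette junctions were called, and without P10 replicate 2 only 1 of the 4 was. The exact permutation p of the index was 0.333 for P49 against P10.

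The C1 exon went the other way. The junction into it held 2933 and 2539 reads at P49, against 3183 and 3273 reads at P10, while the adjoining constitutive junction held 4701 and 4146 reads at P49, against 4064 and 4213 reads at P10. The inclusion index was 68.4% and 66.9% at P49, against 84.7% and 83.9% at P10, with no overlap. The difference was -16.7 points, and -9.83 points when the junction from C1 to C2 took the place of the junction into C1. Relative to Grin1, the junction into C1 (chr2:25294549-25295791) was lower at P49 (log2 change -0.34, adjusted p = 0.0181, edgeR), as was the junction from C1 to the C2 part of the last exon (chr2:25292485-25294437; -0.32, adjusted p = 0.0483, edgeR). The change of the junction into C1 was -0.35 to -0.33 with each library left out in turn, but its adjusted p then ran to 0.22. That of the junction from C1 to C2 was -0.20 without P10 replicate 2 (adjusted p = 0.861, edgeR), and it also lost its call without either P49 library.

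In cultures the C1 index was 95.7% and 97.4% in DRB_first, 103% and 98.2% in control, 95.1% and 99.1% in DRB+bicuculline and 94.2% and 94.1% in DRB_second. Relative to Grin1, the junction into C1 was higher in control than at P49 (log2 change 0.42, adjusted p = 0.000445, edgeR), and the junction from C1 to C2 was higher too (0.49, adjusted p = 5.67e-05, edgeR). The call from C1 to C2 was lost without control replicate 1 (0.36, adjusted p = 0.104, edgeR). Neither was called against P10. The C1 index averaged 101% ± 3.58 in control and 84.3% ± 0.58 at P10 (SD, n = 2 each), but the difference was only 4.14 points when all constitutive Grin1 junctions were the denominator.

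Of the reads into C1, the junction on to the C2 acceptor carried 62.5% ± 0.52 as many at P49 and 61.8% ± 6.82 at P10 (SD, n = 2 each). The value was 62.9% ± 2.20 in DRB_first and 65.9% ± 6.41 in control. These groups overlapped. The ratio of the last to the first constitutive junctions of Grin1 was 0.79 ± 0.04 in DRB_first, 0.69 ± 0.05 in control, 0.88 ± 0.04 at P49 and 0.91 ± 0.06 at P10, so it was lowest in control, where the C1 index was highest, and its part in that index was not tested.

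Blocking transcription or adding bicuculline called no Grin1 junction. In DRB_first against control 0 of the 74 member junctions tested were called (1.36% of all junctions were), and the smallest adjusted p among them was 0.165 (edgeR). In DRB+bicuculline against DRB_second 0 of 59 were called (0.00218% of 137355 junctions were). Both counts of 0 are near the share over all junctions. The N1 index averaged 1.40% ± 0.08 in DRB_first and 1.32% ± 0.28 in control, and 1.49% ± 0.08 in DRB+bicuculline and 1.54% ± 0.25 in DRB_second. The N1 junctions held few reads in cultures, so changes there could be missed. Relative to Grin1, the junction into N1 had uncalled log2 changes of 0.33 for DRB_first against control and -0.23 for DRB+bicuculline against DRB_second.

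**Figure D4:**
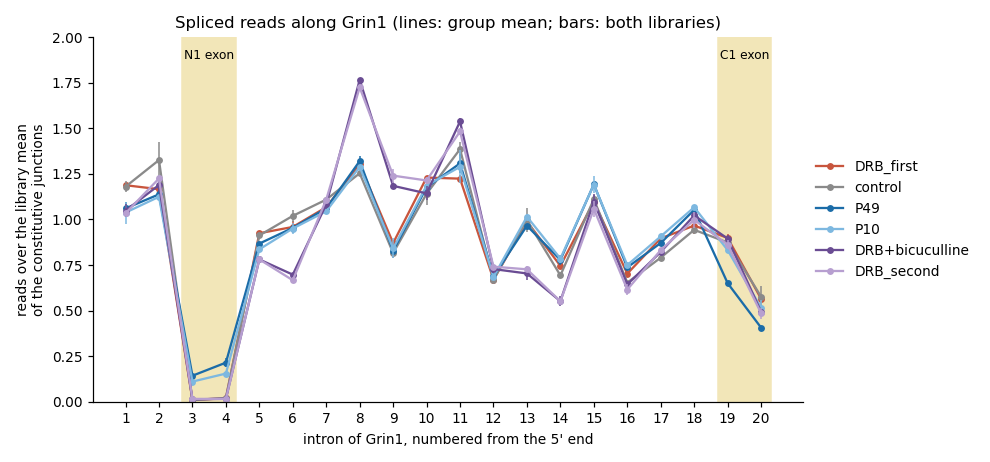
Reads at each of the 20 Grin1 junctions over the library's mean of the 16 constitutive ones (vertical axis, from 0) by intron number (horizontal axis), as group means with bars spanning both libraries. The N1 junctions (introns 3 and 4) drop near 0 in all culture groups, and P49 is lowest at the C1 junctions (introns 19 and 20).

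**Figure D5:**
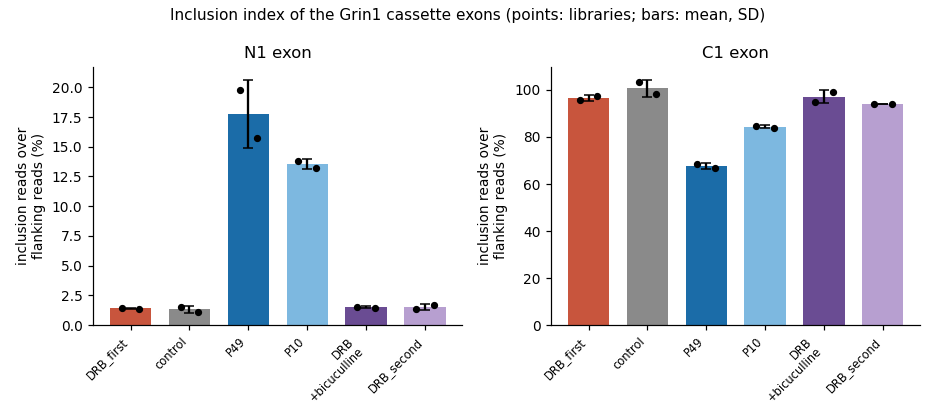
Inclusion index (%, vertical axes from 0) of the N1 and C1 exons in the 6 groups; points are libraries, and bars are means with SD (n = 2). N1 stands at 17.8% at P49 and 13.5% at P10 and below 2% in every culture library, while C1 is lowest at P49 (67.6%).

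Outside Grin1, 1 member junction was called, 1 of the 11 Grin2d junctions tested in control against P10. Over all members 3 of 74 junctions were called there, where 4.90% of all junctions were, so the count does not set the members apart. The first measured intron of Grin2d, chr7:45862564-45866111, was higher relative to its gene in control than at P10 (log2 change 0.90, adjusted p = 0.0189, edgeR). Against P49 it was not called (log2 change 0.86, adjusted p = 0.0748, edgeR). It held 35 and 42 reads in control, against 99 and 159 reads at P10, which was 0.60 and 0.58 of the median Grin2d junction in control, against 0.26 and 0.40 at P10. In every library this junction held fewer reads than the median Grin2d junction.

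The insert of Grin3a was included in a minority of transcripts in every library. Its acceptor took 15.4% of 188 reads (exact Clopper-Pearson 95% interval 10.6-21.4%) and 15.9% of 151 reads (10.5-22.7%) at P49. It took 16.1% of 397 reads (12.6-20.1%) and 13.7% of 488 reads (10.8-17.1%) at P10. The share averaged 11.6% ± 0.57 in DRB_first, 13.5% ± 4.74 in control, 12.9% ± 0.92 in DRB+bicuculline and 13.9% ± 5.98 in DRB_second. The intervals cover counting error only.

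None of the 5 comparisons called this acceptor (edgeR on the odds at the shared donor), and 0 had an unadjusted p under 0.05. The adjusted p was 0.945 for P49 against P10, where 4.46% of the junction shares of all genes were called, and 0.861 for DRB_first against control (5.72% called). It was 0.999 for DRB+bicuculline against DRB_second (0.0112% called), 0.931 for control against P10 (9.73% called) and 0.850 for control against P49 (14% called). The log2 odds of the insert differed by 0.09 ± 0.35 SE between P49 and P10, so a change of that order was not detectable at this depth. No Grin1 junction entered that test. The 20 annotated Grin1 junctions measured are the successive introns of Grin1-204, so none shared a splice site with another.

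Genes that work with the receptor were described by lists, chosen with earlier results of these data known. Among 13 scaffold genes, 4 rose and 5 fell at P49 against P10 (median log2 change -0.07, against -0.001 for all genes). Over all genes 27.9% were called higher and 28.6% lower, so the counts do not set the scaffolds apart. Dlgap1, a protein of the postsynaptic density, rose by 1.19, and Dlg2, a scaffold of the same structure, fell by 0.67. Among 14 signalling genes, 6 rose and 3 fell, with a median of 0.07. Camk2a, the alpha subunit of calcium/calmodulin-dependent kinase II, rose by 1.15 and Rasgrf1, a calcium-regulated exchange factor for Ras, by 1.58 on the log2 scale.

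Among the 12 other ionotropic glutamate receptor subunits, 5 rose and 3 fell at P49 (median 0.03), with Gria3, an AMPA receptor subunit, up by 0.85 and Grik1, a kainate receptor subunit, at -0.68. Of 10 trafficking genes, 2 rose and 5 fell (median -0.12), with Ephb2, a receptor tyrosine kinase that binds NMDA receptors, at -1.53. Of 11 kinase and phosphatase genes, 6 rose and 4 fell (median 0.30). Prkcb rose by 0.46 and Ptpn5 by 0.60, while Fyn, a kinase of the Grin2b product, was at -0.73. Of 8 tested genes of co-agonist supply, 1 rose and 5 fell (median -0.28), with the serine transporter Slc1a4 at -1.04. Beside these counts, 27.9% of all genes were called higher and 28.6% lower.

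In DRB_first against control, 29.6% of all genes were called higher and 32.8% lower. Signalling genes rose in 14 of 14 (median 0.74, against -0.03 for all genes) and scaffolds in 12 of 13 (median 0.71). Camk2a rose by 1.04, Dlg4, the main scaffold of the postsynaptic density, by 1.05 and Dlg2 by 0.97. The other ionotropic subunits rose in 9 of 12 with none lower (median 0.69), kinases and phosphatases in 7 of 11 with none lower (0.47), trafficking genes in 5 of 10 with 1 lower (0.37), and co-agonist genes in 3 of 8 with 1 lower (0.10), a count of rises near the share over all genes. Neuronal markers had a median of 0.98, as given above.

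With bicuculline, 0 of the 67 tested genes of these lists were called by edgeR, where 0.207% of all genes were called, so a count of 0 shows nothing about the lists. In control against P10, where 36.8% of all genes were called higher and 36.9% lower, scaffolds fell in 13 of 13 (median -1.24) and signalling genes in 13 of 14 (-1.14), led by Camk2a at -2.09. The other ionotropic subunits fell in 10 of 12 (-0.56), kinases and phosphatases in 8 of 11 with 1 higher (-0.21), and trafficking genes in 6 of 10 with 4 higher (-0.30). Co-agonist genes split, with 4 higher and 2 lower (median 0.22): Psat1, an enzyme of serine synthesis, was higher by 0.90 and Slc7a10, a carrier of D-serine and glycine, was at -3.44. Against P49, where 39.2% of all genes were called higher and 36.9% lower, the scaffolds fell in 13 of 13 (-1.30), signalling genes in 13 of 14 with 1 higher (-1.26), and co-agonist genes were 6 higher and 2 lower (0.79). The other ionotropic subunits fell in 10 of 12 (-0.51), kinases and phosphatases in 8 of 11 with 2 higher (-0.45), and trafficking genes in 4 of 10 with 6 higher (0.25).

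Genes whose pattern was most like each member were found by the root mean square difference of centred log2 CPM over the 8 libraries of the first table, among 9314 candidates. Grin1 was near to Sh3gl2 and Rab3a, at 0.05 each, where the median gene was at 0.66. Grin2a was nearest to Dzank1, Nos1ap and Cobl (0.06 to 0.07), and Grin2b, which varied least, to Xrcc1, Rsl24d1 and Dgcr2 (0.04 each). Grin2d was nearest to Tm7sf2, Hmgcs1 and Rasip1 (0.16 to 0.28) and Grin3a to Col6a3, Fdps and Rpsa (0.14 to 0.16). Grin2c was below the level set for this search. The 8 libraries share 4 groups, so likeness here reflects few independent points.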

How the data were processed

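Polyadenylated RNA was sequenced in stranded libraries (per the labels' protocols) and aligned by the authors with STAR 2.4.0f1 to mm10, per the submitters' processing notes; the sources used here do not say how junctions were counted. Both deposited tables hold whole-number counts of reads across junctions of adjacent exons, not normalised. Rows have 64 cells under 67 header names (36 under 39 in the second table), so each value was found by its place in the row, and 72 other per-library columns were not used. The columns of P49 and DRB_second were assigned by elimination, and those of control from a short code in their names. Columns show the group but not the sample, so replicate numbers follow column order. Each coordinate was counted once. A junction not listed in a table was taken as 0 reads there.

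Counts at annotated introns (GENCODE M21) were summed per gene and tested in edgeR 4.0.16 (R 4.3.3; TMM, filterByExpr, quasi-likelihood, Benjamini-Hochberg, called at 0.05), in 1 fit per table (8 and 4 libraries). Junction shares at a site needed 20 reads there in 2 libraries and 10 for the junction and for its rivals. Percent spliced in could not be computed because skipping junctions are not listed; the inclusion index and diffSpliceDGE replaced it and were chosen after seeing the data. Shares and indices were compared by exact two-sided permutation tests (smallest p 0.333). Depth was 49559425 to 73900724 spliced reads per library. Every fit was tested on simulated data. Alternatives were DESeq2 1.42.0, no filter, unannotated junctions, only the 2 groups compared, each library left out, a replicate block, other denominators and other read minimums. The members and lists were chosen with earlier results of these data known. Named were all members, up to 4 genes per list and comparison by smallest p, the 3 nearest genes of each member averaging 3 or more in log2 CPM, and the called junctions of members. One gene that this rule names is not reported here.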

Additional observations from a re-analysis of the deposited data

How the results depend on the processing

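The 19 called and 11 uncalled member changes kept their side of the threshold in all 240 alternative values, which were DESeq2 size factors, no filter, every junction with the symbol, only the 2 groups compared and each library left out; the sign of an uncalled change could differ. With a replicate block on the letter of the column names, 0 members were called for bicuculline, as without it; the letters match no number in the labels, so no pairing was taken from them, and no paired analysis was possible for the other comparisons because their columns carry no replicate number of the labels.

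Differences in the Grin2a share of Grin2a plus Grin2b moved by more than the spread between replicates in these cases. With the mean over the same introns they were 18.3 points (P49 against P10, 20.7 in the report), 5.21 (DRB_first against control, 6.18) and -12.5 (control against P10, -11.9). With all annotated introns they were 18.4 (P49 against P10) and -13.3 (control against P10). The N1 index difference was -10.5 with the upstream junction, -13.9 with the downstream one and -11.8 against all constitutive junctions (control against P10, -12.2), and -13.5 upstream and -19.5 downstream for control against P49. The C1 index difference was -9.83 with the downstream junction and -18.2 against all constitutive junctions for P49 against P10 (-16.7), and 24.2 and 22.3 for control against P49 (33.1). Against all constitutive junctions it was 4.14 for control against P10 and reversed to 2.54 for DRB_first against control (-4.21, exact permutation p = 0.333); the cause was not tested.

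Of the Grin1 cassette junctions, 3 were called for P49 against P10 and 0 to 2 with a library left out. With every junction of at least 10 reads, 2 Grin1 junction shares were called for control against P49. The share called over all genes in that setting is not given, so this count is description only. With annotated junctions only, 14% of all junction shares were called in this comparison. No Grin1 junction entered that test, so the 2 settings cannot be compared. With 2 libraries a group, Grin2c in cultures and the Grin3a acceptor were limited by counts of under 110 and under 500 reads.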

Other observations

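The junction profile of Grin1 differed between the culture experiments at constitutive introns as well. At intron 8 the reads were 1.78 and 1.76 times the mean of the constitutive junctions in DRB+bicuculline and 1.73 and 1.72 times in DRB_second. In the first table they were 1.32 and 1.29 times in DRB_first, 1.27 and 1.24 times in control, 1.29 and 1.35 times at P49 and 1.29 and 1.28 times at P10. At intron 14 they were 0.58 and 0.52 times in DRB+bicuculline and 0.56 and 0.54 times in DRB_second, and between 0.68 and 0.81 times in the first table. The experiments differ in table and possibly in cultures, which cannot be told apart here, and no test was made across tables.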
